A study of Mus musculus with 18 samples.

Results

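The genes described here are 40 genes of cell proliferation, followed through RNA-sequencing of mouse bone marrow mesenchymal stem cells (MSCs) in which Pot1a, a protein that binds single-stranded telomeric DNA, was targeted for deletion. They were chosen by symbol, and all 40 were found among the 24421 gene symbols of both count tables. By role they are 8 genes that license DNA for replication, 5 regulators of the entry into S phase and 27 genes of G2 and mitosis. In culture there were 4 groups of 3 libraries: week 4 Δ/Δ, week 4 wt/wt, week 1 Δ/Δ and week 1 wt/wt. Cells positive for CD51 and PDGFRα came from the bone marrow of mice aged 4 to 6 months, C57BL/6 by label, that carried a flox-stop-flox tdTomato reporter and either floxed (Δ/Δ) or wild-type (wt/wt) Pot1a. Both genotypes received Cre vesicles (10 µL per well for 12 h), were sorted for tdTomato 48 h later and were then passaged at full confluency. The other 6 libraries were tdTomato+ cells sorted without culture from the bone marrow of mice aged 2 weeks that carried NG2-cre and a loxP tdTomato reporter, 3 titled Δ/Δ and 3 titled wt/Δ. NG2-cre is active in pericytes throughout the body and not only in MSCs, and the wt/Δ controls carry Cre and, by their titles, 1 deleted Pot1a allele.

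A cell copies its DNA in S phase and divides in M phase, and each phase has its own set of transcripts. In G1, the proteins Cdc6 and Cdt1 load the ring-shaped Mcm2-7 helicase onto origins, which licenses them for replication. Cyclin E and the E2F transcription factors then drive entry into S phase, where Pcna clamps DNA polymerase onto its template. Genes of mitosis are transcribed later, in G2, under the transcription factors Foxm1 and Mybl2 (B-Myb), and in resting cells the DREAM complex keeps both sets silent. E2F motifs mark promoters of the first set, and a CHR element together with CCAAT boxes marks promoters of the second. MSCs in the marrow divide rarely, whereas MSCs plated on plastic divide until they become confluent or senescent.

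Promoter sequences were searched for these motifs. For 33 of the 40 members RefSeq promoter windows (GRCm38.p6) were at hand. In the 250 bases before the annotated start, the CHR element (TTTGAA, or TTCAAA on the other strand) was found in 7 of 22 mitotic and 1 of 7 licensing members, against 16.3% of all 27025 genes with a window. When the 50 bases after the start were included, it was found in 16 of 22 mitotic and 1 of 7 licensing members, against 18.1% of all genes. A CCAAT box (CCAAT or ATTGG) was found before the start in 19 of 22 mitotic and 5 of 7 licensing members, against 34.5% of all genes. E2F motifs (TTCCCGC, or TTGGCGC, or TTCGCGC, or TTGCCGC, on either strand) were found in 4 of 22 mitotic and 4 of 7 licensing members before the start, against 7.97% of all genes, and in 4 of 22 mitotic and 6 of 7 licensing members with the 50 bases after it, against 9.69% of all genes. CCAAT boxes were thus in most members of both sets. An E2F match can share letters with a CCAAT box, and E2F matches on opposite strands can share letters with each other. The 3 licensing and 3 mitotic members with the highest mean level in culture among those with a window are given as the 250 bases before the start, 5′ to 3′ along the gene (matches to any of the 3 motifs are in capitals).
Mcm6, chr1:128359706-128359955, minus strand: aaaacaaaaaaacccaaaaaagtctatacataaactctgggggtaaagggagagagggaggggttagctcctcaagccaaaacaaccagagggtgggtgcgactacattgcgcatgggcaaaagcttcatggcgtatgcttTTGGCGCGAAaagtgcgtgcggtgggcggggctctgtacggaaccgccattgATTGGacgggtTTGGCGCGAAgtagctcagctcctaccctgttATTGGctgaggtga
Mcm2, chr6:88898781-88899030, minus strand: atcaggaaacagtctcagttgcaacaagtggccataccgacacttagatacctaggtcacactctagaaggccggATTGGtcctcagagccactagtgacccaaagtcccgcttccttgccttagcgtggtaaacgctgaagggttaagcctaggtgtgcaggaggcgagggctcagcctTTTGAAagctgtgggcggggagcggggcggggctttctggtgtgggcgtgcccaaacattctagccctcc
Mcm3, chr1:20820313-20820562, minus strand: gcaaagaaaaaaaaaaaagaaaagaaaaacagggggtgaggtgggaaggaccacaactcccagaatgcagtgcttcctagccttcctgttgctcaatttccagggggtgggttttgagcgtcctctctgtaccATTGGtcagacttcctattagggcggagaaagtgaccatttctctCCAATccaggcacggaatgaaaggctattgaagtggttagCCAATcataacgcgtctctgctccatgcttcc
Prc1, chr7:80294201-80294450, plus strand: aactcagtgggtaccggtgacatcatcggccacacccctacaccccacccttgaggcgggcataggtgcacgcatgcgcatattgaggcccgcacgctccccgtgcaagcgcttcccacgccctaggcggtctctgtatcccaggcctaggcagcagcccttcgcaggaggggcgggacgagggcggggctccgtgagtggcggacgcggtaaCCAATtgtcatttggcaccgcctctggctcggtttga
Top2a, chr11:99024190-99024439, minus strand: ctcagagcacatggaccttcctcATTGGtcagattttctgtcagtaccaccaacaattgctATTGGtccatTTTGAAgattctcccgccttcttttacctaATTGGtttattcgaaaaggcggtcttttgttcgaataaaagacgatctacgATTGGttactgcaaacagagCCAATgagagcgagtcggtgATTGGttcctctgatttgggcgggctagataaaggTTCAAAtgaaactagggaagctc
Cdc20, chr4:118437344-118437593, minus strand: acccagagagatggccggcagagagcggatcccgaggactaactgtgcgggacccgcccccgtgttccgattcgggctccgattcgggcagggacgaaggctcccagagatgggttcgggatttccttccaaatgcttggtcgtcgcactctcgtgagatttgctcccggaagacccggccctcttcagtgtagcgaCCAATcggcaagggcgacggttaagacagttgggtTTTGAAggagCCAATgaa
Mcm6 held 2 stretches in which E2F motifs of both strands overlap, while Mcm2 held a CHR element and Mcm3 only CCAAT boxes before the start. Top2a held 2 CHR elements and 6 CCAAT boxes, and Cdc20 held 1 CHR element between 2 CCAAT boxes. These matches are letters in a window, and binding was not measured.

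The libraries held 12807832 to 90717232 counts in culture and 28918757 to 49992698 counts in sorted cells. Levels are given in CPM, which is the count brought by TMM to one library size within cultured and within sorted libraries, so levels are not compared between the 2 experiments. A gene was called higher or lower at an adjusted p under 0.05 in edgeR's quasi-likelihood test, fitted over 13169 genes in culture and 14605 in sorted cells. The labels number the replicates without saying whether any came from a shared mouse or day, so p-values measure the spread between these libraries. Members were measured in the same libraries and can rise and fall together, so counts of members by direction are not counts of independent results. Pot1a itself was not lower in the cultured libraries labelled Δ/Δ, and at week 4 it was called higher (log2 fold change 0.39, adjusted p = 0.0298). The counts take in reads from the whole gene, and which exons are floxed is not given in the sources used here, so a deletion of part of the gene need not lower them. It had 45.6 ± 2.62 CPM in week 4 libraries labelled Δ/Δ against 34.9 ± 2.54 CPM in week 4 wt/wt, and 34.5 ± 3.41 CPM in week 1 libraries labelled Δ/Δ against 34.9 ± 1.51 CPM in week 1 wt/wt (SD, n = 3 each). In sorted cells it had 26.96 ± 6.77 CPM in libraries labelled Δ/Δ and 30.4 ± 3.71 CPM in wt/Δ (SD, n = 3 each, adjusted p = 0.825), so directions between genotypes go by the labels. Ptprc, the pan-blood marker CD45, had at most 0.163 CPM in culture, and the 12 stromal markers summed to 16404 to 33599 CPM there. Among the members, E2f2 was nearly silent in culture (4 to 38 counts per library), and every other member had at least 67 counts in each library.

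**Figure D1:**
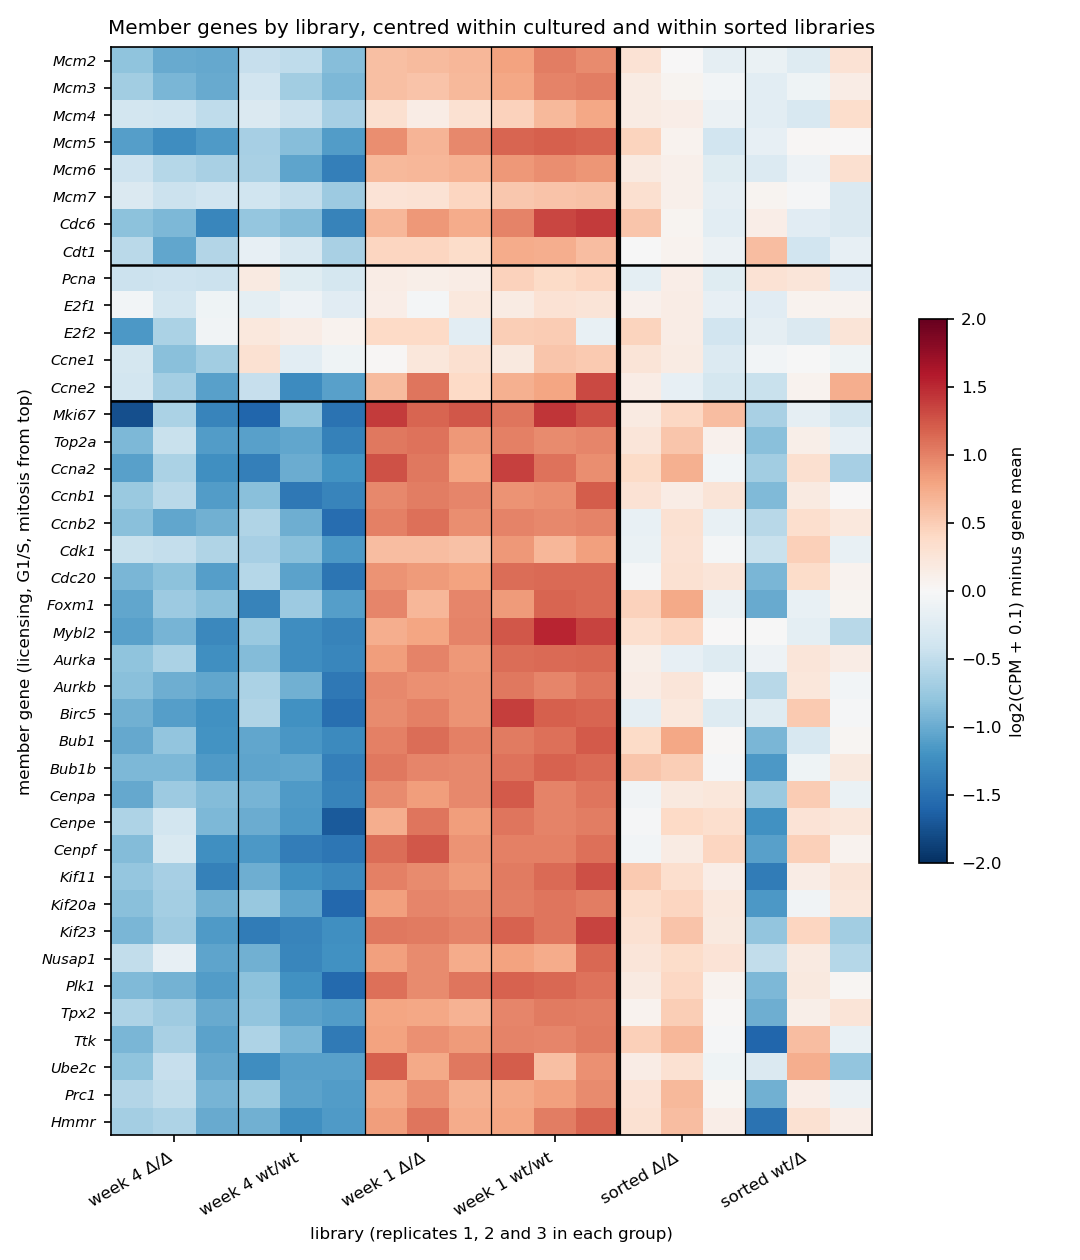
Heat map of the 40 members (rows: licensing, G1/S and mitotic genes from top) in the 18 libraries (columns, replicates 1 to 3 of each group), coloured by log2(CPM + 0.1) minus the gene's mean over cultured or over sorted libraries. Week 4 columns are blue and week 1 columns red for nearly all members in both genotypes, and the sorted wt/Δ replicate 1 column is blue over most mitotic genes.

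Nearly all members differed between the weeks of culture. In the libraries labelled Δ/Δ, 38 of 40 members were lower at week 4 than at week 1 and none was higher, and in wt/wt it was likewise 38 lower and none higher. Of all genes tested, 16.3% were lower and 18.8% higher over time in Δ/Δ, and 16.1% were lower and 17.9% higher in wt/wt. All 8 licensing and all 27 mitotic members were lower in both genotypes. The exceptions were E2f1 and E2f2 in Δ/Δ and E2f2 and Ccne1 in wt/wt. For 37 members, every week 4 library of either genotype lay below every week 1 library, and Pcna, E2f2 and Ccne1 overlapped. The weeks may differ in preparation as well as in time in culture, which cannot be told apart here. In these bulk libraries, fewer dividing cells and less RNA per dividing cell cannot be told apart either.

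Among the mitotic genes, the median log2 fold change over time was -1.80 in Δ/Δ (range -2.44 to -1.11) and -2.20 in wt/wt (range -2.53 to -1.67), beside a median of 0.0035 in Δ/Δ and -0.0082 in wt/wt over all genes. Mki67, the Ki-67 antigen that coats mitotic chromosomes and marks cycling cells, had 11.2, 24.6 and 15.2 CPM in week 4 against 100.2, 85.1 and 90.0 CPM in week 1 libraries labelled Δ/Δ. In wt/wt it had 12.6, 21.7 and 13.6 CPM at week 4 against 79.8, 103 and 93.0 CPM at week 1. Every week 4 library lay far below every week 1 library (log2 fold change -2.44, standard error 0.27, adjusted p = 2.46e-05 in Δ/Δ, and log2 fold change -2.52, standard error 0.27, adjusted p = 1.78e-05 in wt/wt). Top2a, the topoisomerase that untangles sister chromatids, fell to 28.6% of its week 1 level in Δ/Δ and to 22.8% in wt/wt (adjusted p = 4.24e-06 and 1.03e-06). Kif23, a kinesin of the midzone between separating chromosomes, had 11.3, 13.0 and 9.58 CPM in week 4 against 44.0, 43.5 and 42.6 CPM in week 1 libraries labelled Δ/Δ. In wt/wt it had 7.996, 8.48 and 8.97 CPM at week 4 and 48.5, 44.8 and 54.6 CPM at week 1, the largest fold fall among the members in wt/wt (log2 fold change -2.53, standard error 0.14, adjusted p = 1.18e-07).

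Cdk1, the kinase that starts mitosis, had the smallest fold fall among the 27 mitotic genes in both genotypes, to 46.3% of its week 1 level in Δ/Δ (log2 fold change -1.11, standard error 0.12, adjusted p = 2.41e-05) and to 31.5% in wt/wt (log2 fold change -1.67, standard error 0.12, adjusted p = 1.03e-06). Its cyclin partners Ccna2, Ccnb1 and Ccnb2 fell to 24.7%, 29.4% and 25.6% in Δ/Δ, and to 20.1%, 21.8% and 25.3% in wt/wt. The transcription factors of the mitotic genes fell with them. Foxm1 was at 29.8% of its week 1 level in Δ/Δ and 23.5% in wt/wt, and Mybl2 was at 25.3% in Δ/Δ and 17.5% in wt/wt. The mitotic kinases Aurka, Aurkb, Plk1, Ttk, Bub1 and Bub1b lay between 24.1% (Bub1) and 29.7% (Ttk) of their week 1 level in Δ/Δ and between 20.1% (Plk1) and 25.3% (Ttk) in wt/wt. Cdc20 and Ube2c, through which the anaphase-promoting complex marks proteins for destruction, fell to 28.7% and 29.3% in Δ/Δ and to 22.9% and 23.7% in wt/wt. Birc5 (survivin), a partner of Aurkb at the centromere, fell to 24.1% in Δ/Δ and to 19.8% in wt/wt.

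The centromere and spindle genes moved the same way. Cenpa, the histone H3 variant of centromeres, had a log2 fold change of -1.80 in Δ/Δ and -2.25 in wt/wt. For Cenpe, a kinesin that carries chromosomes along the spindle, it was -1.502 in Δ/Δ and -2.29 in wt/wt, and for Cenpf, a kinetochore protein, -1.87 in Δ/Δ and -2.38 in wt/wt. The spindle motors had -1.85 in Δ/Δ and -2.32 in wt/wt (Kif11) and -1.74 in Δ/Δ and -2.14 in wt/wt (Kif20a). Tpx2, Hmmr, Nusap1 and Prc1 organise spindle microtubules. Their log2 fold changes were -1.53, -1.66, -1.38 and -1.46 in Δ/Δ, and -1.998, -2.11, -2.08 and -1.82 in wt/wt.

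Licensing genes had a median log2 fold change over time of -1.34 in Δ/Δ (range -2.01 to -0.68) and -1.56 in wt/wt (range -2.26 to -1.08). Cdc6, one of the helicase loaders, had 5.95, 5.63 and 4.24 CPM in week 4 against 16.8, 19.4 and 17.8 CPM in week 1 libraries labelled Δ/Δ. In wt/wt it had 6.13, 5.74 and 4.11 CPM at week 4 and 21.1, 26.8 and 28.2 CPM at week 1 (log2 fold change -2.26, standard error 0.19, adjusted p = 2.48e-06). The 6 helicase subunits did not fall to one extent. Mcm5 fell furthest, to 24.8% of its week 1 level in Δ/Δ and 24.3% in wt/wt, and Mcm4 and Mcm7 fell least, to 62.2% and 61.5% in Δ/Δ and to 47.0% and 46.9% in wt/wt. Mcm2 and Mcm3 lay between, at 33.5% and 36.0% in Δ/Δ and 34.5% and 33.5% in wt/wt. Mcm6 fell to 43.1% in Δ/Δ and to 26.9% in wt/wt, and Cdt1, the other loader, to 46.1% in Δ/Δ and 47.4% in wt/wt.

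Of the S phase regulators, Ccne2, one of the E cyclins, fell, with a log2 fold change of -1.44 in Δ/Δ and -1.91 in wt/wt (adjusted p = 0.0013 and 0.000209). Ccne1, the other E cyclin, fell in Δ/Δ (log2 fold change -0.82, standard error 0.17, adjusted p = 0.0029) but in wt/wt did not pass the test (log2 fold change -0.42, standard error 0.17, adjusted p = 0.0782). Pcna fell, with a log2 fold change of -0.56 in Δ/Δ and -0.54 in wt/wt. E2f1, an activating E2F, had 34.7, 27.7 and 33.9 CPM in week 4 against 39.2, 34.9 and 41.5 CPM in week 1 libraries labelled Δ/Δ and did not pass the test (log2 fold change -0.26, standard error 0.12, adjusted p = 0.101). It had 31.4, 33.4 and 30.5 CPM in week 4 against 40.4, 44.1 and 43.0 CPM in week 1 wt/wt libraries (log2 fold change -0.42, standard error 0.12, adjusted p = 0.0151). In both genotypes the log2 fold change of E2f1 was closer to 0 than that of any licensing gene. Without week 1 wt/wt replicate 2 the call of E2f1 in wt/wt was lost (adjusted p = 0.057).

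**Figure D2:**
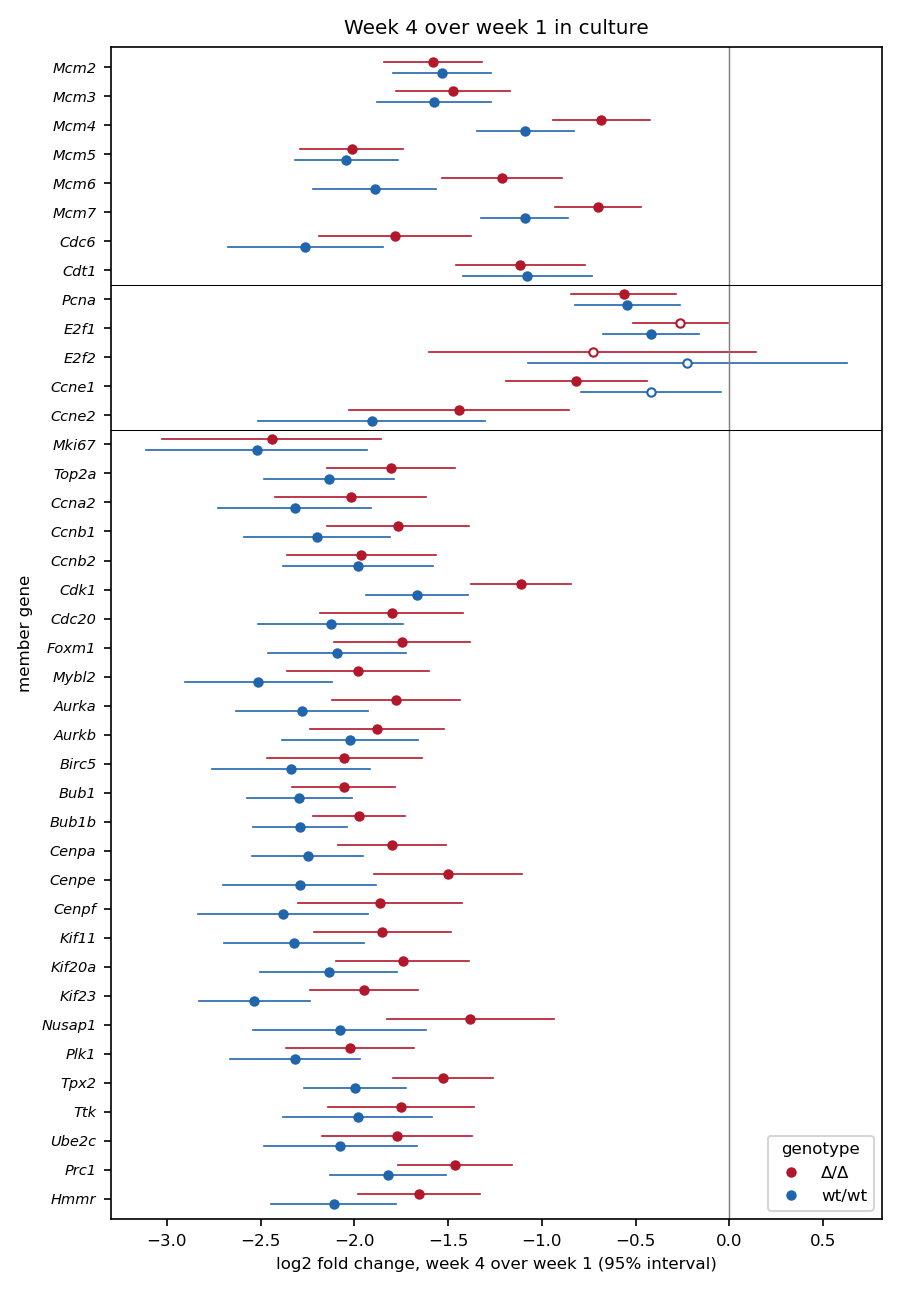
Log2 fold change of week 4 over week 1 (x axis) for each member (y axis), Δ/Δ above wt/wt, with 95% intervals, filled where the adjusted p was under 0.05. Intervals of all licensing and mitotic members lie below 0 in both genotypes, and those of E2f1, E2f2 and Ccne1 reach nearest to 0 or across it.

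Wider lists of the same functions fell too. Of 49 other replication genes, 45 were lower and none higher at week 4 in Δ/Δ, and again 45 and none in wt/wt, with a median log2 fold change of -1.08 in Δ/Δ and -1.18 in wt/wt. Uhrf1, which carries DNA methylation through replication, fell, with a log2 fold change of -2.10 in Δ/Δ (adjusted p = 1.6e-07) and -2.12 in wt/wt (adjusted p = 1.33e-07). Pole, the catalytic subunit of DNA polymerase epsilon, had -1.88 in Δ/Δ and -1.87 in wt/wt, and Mcm10, a replication initiation factor, -1.87 in Δ/Δ and -2.33 in wt/wt. Of 81 other mitosis genes, 73 were lower and 2 higher in Δ/Δ, and 75 were lower and 1 higher in wt/wt, with medians of -1.54 in Δ/Δ and -1.88 in wt/wt. Espl1, the separase that cuts cohesin at anaphase, had -2.38 in Δ/Δ and -2.57 in wt/wt, Aspm, a spindle pole protein, -2.21 in Δ/Δ and -2.28 in wt/wt, and the kinesin Kif15 -2.05 in Δ/Δ and -2.39 in wt/wt. In 24 genes of G1 cyclins, pocket proteins and the DREAM complex the directions were mixed, with 8 lower and 3 higher in Δ/Δ and 10 lower and 4 higher in wt/wt. E2f7, a repressor E2F, had -2.38 in Δ/Δ and -2.63 in wt/wt, whereas Ccnd2, a D cyclin, was higher, by 0.79 in Δ/Δ and 1.01 in wt/wt. Lin52, a DREAM subunit, was higher by 0.88 in Δ/Δ (adjusted p = 0.00299), and in wt/wt its log2 fold change of 0.45 did not pass the test (adjusted p = 0.0807).

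At week 4, 1 member was higher and 1 lower in the libraries labelled Δ/Δ than in wt/wt, against 9.20% of all genes called higher and 6.46% called lower. The member called higher was Cenpe, with 16.2, 19.2 and 13.3 CPM in libraries labelled Δ/Δ against 12.4, 11.1 and 7.69 CPM in wt/wt. All 3 Δ/Δ values lay above all 3 wt/wt values (log2 fold change 0.64, standard error 0.18, adjusted p = 0.0315). The member called lower was Ccne1, with 22.2, 15.9 and 17.4 CPM in libraries labelled Δ/Δ and 35.0, 24.5 and 26.7 CPM in wt/wt. Here all Δ/Δ values lay below the wt/wt values (log2 fold change -0.63, standard error 0.17, adjusted p = 0.0258). Neither call held under every setting: over the alternatives the adjusted p of Cenpe ran from 0.0107 to 0.159 and that of Ccne1 from 0.00517 to 0.0971. Both were lost in a fit of the 6 week 4 libraries alone and without week 4 Δ/Δ replicate 2. The call of Cenpe was also lost without week 4 Δ/Δ replicate 1, week 4 wt/wt replicate 2 or 3, week 1 wt/wt replicate 2 or week 1 Δ/Δ replicate 3, and that of Ccne1 without week 4 wt/wt replicate 1 or week 4 Δ/Δ replicate 3.

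Most mitotic members had values above 0 at week 4, and licensing members lay on both sides of it. Of the 27 mitotic genes, 25 had a log2 fold change above 0 in libraries labelled Δ/Δ over wt/wt, with a median of 0.24 (range -0.016 to 0.64), whereas 3 of 8 licensing genes did, with a median of -0.12 (range -0.35 to 0.45), beside a median of 0.0024 over all genes. In 4 mitotic genes (Cdk1, Cenpe, Kif23 and Ube2c) the Δ/Δ libraries all lay above the wt/wt libraries, against 15.5% of all genes. Cdk1 had 41.7, 40.7 and 37.4 CPM in Δ/Δ and 35.5, 31.6 and 25.4 CPM in wt/wt (log2 fold change 0.38, standard error 0.12, adjusted p = 0.0561, 95% interval 0.11 to 0.64). Kif23 had 11.3, 13.0 and 9.58 CPM in Δ/Δ and 7.996, 8.48 and 8.97 CPM in wt/wt (log2 fold change 0.40, standard error 0.13, adjusted p = 0.0614). Neither passed the test. Nusap1, which binds spindle microtubules, had 13.1, 16.5 and 8.77 CPM in Δ/Δ and 9.42, 7.36 and 7.87 CPM in wt/wt, with overlap through Δ/Δ replicate 3 (log2 fold change 0.63, standard error 0.21, adjusted p = 0.0621). Cenpf had 11.1, 16.5 and 8.64 CPM in Δ/Δ against 9.12, 7.72 and 7.41 CPM in wt/wt, where Δ/Δ replicate 2 stood highest (log2 fold change 0.57, standard error 0.20, adjusted p = 0.0835). By contrast Mki67 (0.078), Aurkb (0.035), Ccnb2 (0.05), Mybl2 (-0.0045) and Birc5 (-0.016) had log2 fold changes near 0, although the 95% interval of Mki67 (-0.49 to 0.65) leaves room for a difference either way.

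The log2 fold changes of the helicase subunits went both ways at week 4, with none called. Mcm6 had 69.97, 62.9 and 59.6 CPM in libraries labelled Δ/Δ and 59.9, 44.7 and 36.3 CPM in wt/wt, with overlap of Δ/Δ replicate 3 and wt/wt replicate 1 only (log2 fold change 0.45, standard error 0.15, adjusted p = 0.0573). Mcm2, of the same ring, had 34.6, 30.3 and 29.8 CPM in Δ/Δ and 44.0, 42.6 and 33.8 CPM in wt/wt, with wt/wt replicate 3 below the highest Δ/Δ library (log2 fold change -0.35, standard error 0.12, adjusted p = 0.0702). The other subunits had log2 fold changes of -0.22 (Mcm3), 0.032 (Mcm4), -0.29 (Mcm5) and 0.16 (Mcm7), and the loaders -0.015 (Cdc6) and -0.33 (Cdt1). None of the 8 licensing genes was called, and none was without overlap between the groups. Pcna (-0.30), Ccne1 and the nearly silent E2f2 (-0.68) were the 3 members whose Δ/Δ libraries all lay below wt/wt, against 11.8% of all genes.

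These week 4 calls rested on single libraries. Without wt/wt replicate 1, which was highest of its group in 32 of 40 members, 8 members were called, all higher in Δ/Δ (Mcm6, Ccnb1, Cdk1, Cenpe, Kif20a, Nusap1, Plk1 and Prc1). Without Δ/Δ replicate 3, which was lowest of its group in 29 of 40 members and the deepest library, 4 were called, all higher. Without wt/wt replicate 3, lowest of its group in 30 members, 3 were called, all lower (Mcm2, Mcm5 and Ccne1), and without Δ/Δ replicate 2 none was called. The median over the mitotic genes stayed between 0.13 and 0.34 as each library was left out, whereas that over the licensing genes ran from -0.27 to 0.0061, the highest without wt/wt replicate 1. DESeq2 called 6 members: Mcm6, Cdk1, Cenpe and Nusap1 higher and Mcm2 and Ccne1 lower. Both libraries numbered 1 also had the lowest Xist of week 4, at 11.1 CPM in Δ/Δ and 10.7 CPM in wt/wt, and without both of them 4 members were called and the mitotic median was 0.35.

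**Figure D3:**
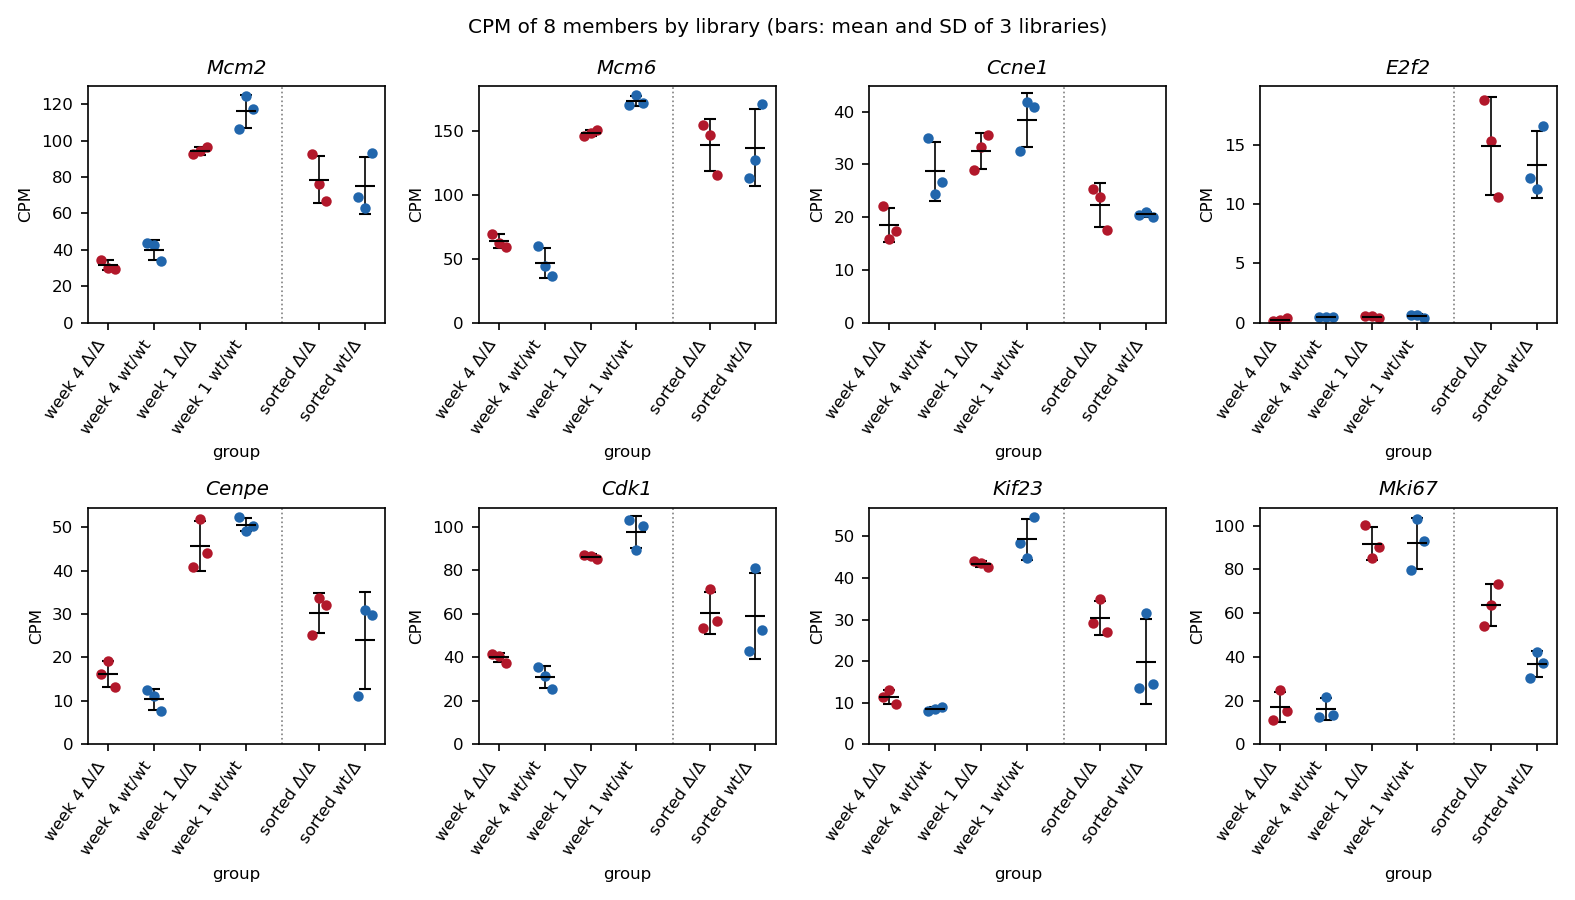
CPM of 8 members (y axes from 0) in each library by group (x axes), with points for libraries and bars for the mean and SD of 3 libraries; a dotted line parts cultured from sorted libraries, which were scaled separately. The points of Cenpe, Cdk1 and Kif23 lie higher and those of Ccne1 lower in week 4 Δ/Δ than in week 4 wt/wt, where only Cenpe and Ccne1 were called. E2f2 is near 0 in culture.

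Of 81 other mitosis genes, 6 (7.41%) were higher and none lower in Δ/Δ at week 4, a share of higher calls below the 9.20% of all genes, and 70 had a log2 fold change above 0, with a median of 0.23. The largest among well-expressed genes were Sgol2a, a shugoshin that guards centromeric cohesin (0.63, standard error 0.18, adjusted p = 0.0323), and Hmgb2, a chromatin protein of dividing cells (0.63, standard error 0.12, adjusted p = 0.00339). None of 49 other replication genes was called by edgeR, with 4 (8.16%) at an unadjusted p under 0.05, against 3556 of all 13169 genes, and a median of -0.028. Of the 24 G1 genes 1 was lower, Ccnd1, which encodes cyclin D1, at -0.95 (standard error 0.21, adjusted p = 0.0071).

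At week 1 no member was called in either direction, in edgeR or in DESeq2, while 0.752% of all genes were called higher and 0.266% lower. At an unadjusted p under 0.05 edgeR had 8 of 40 members (20%) and 11.9% of all genes. The values nevertheless lay mostly on one side. In all 8 licensing genes every library labelled Δ/Δ lay below every wt/wt library, and in 13 of 27 mitotic genes likewise, against 10.8% of all genes, while no member lay wholly above (11.8% of all genes). Mcm4 had 110.1, 97.8 and 109 CPM in Δ/Δ against 121, 139 and 151 CPM in wt/wt (log2 fold change -0.37, standard error 0.12, adjusted p = 0.182, 95% interval -0.63 to -0.12). Cdc6 had 16.8, 19.4 and 17.8 CPM in Δ/Δ and 21.1, 26.8 and 28.2 CPM in wt/wt (log2 fold change -0.49, standard error 0.18, adjusted p = 0.254). The licensing median was -0.31 (range -0.49 to -0.23) and the mitotic median -0.13 (range -0.53 to 0.082), beside -0.0036 over all genes. Mybl2 was the lowest mitotic gene, with 14.0, 14.6 and 16.9 CPM in Δ/Δ and 20.1, 24.4 and 21.5 CPM in wt/wt (log2 fold change -0.53, standard error 0.16, adjusted p = 0.162). Mki67 and Top2a had log2 fold changes of -0.0022 (95% interval -0.55 to 0.55) and 0.031 (95% interval -0.30 to 0.36). Other replication genes had a median of -0.24, with 47 of 49 below 0, and other mitosis genes one of -0.10, with 65 of 81 below 0, and none of either was called by edgeR, where 10 (20.4%) and 3 (3.70%) had an unadjusted p under 0.05.

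**Figure D4:**
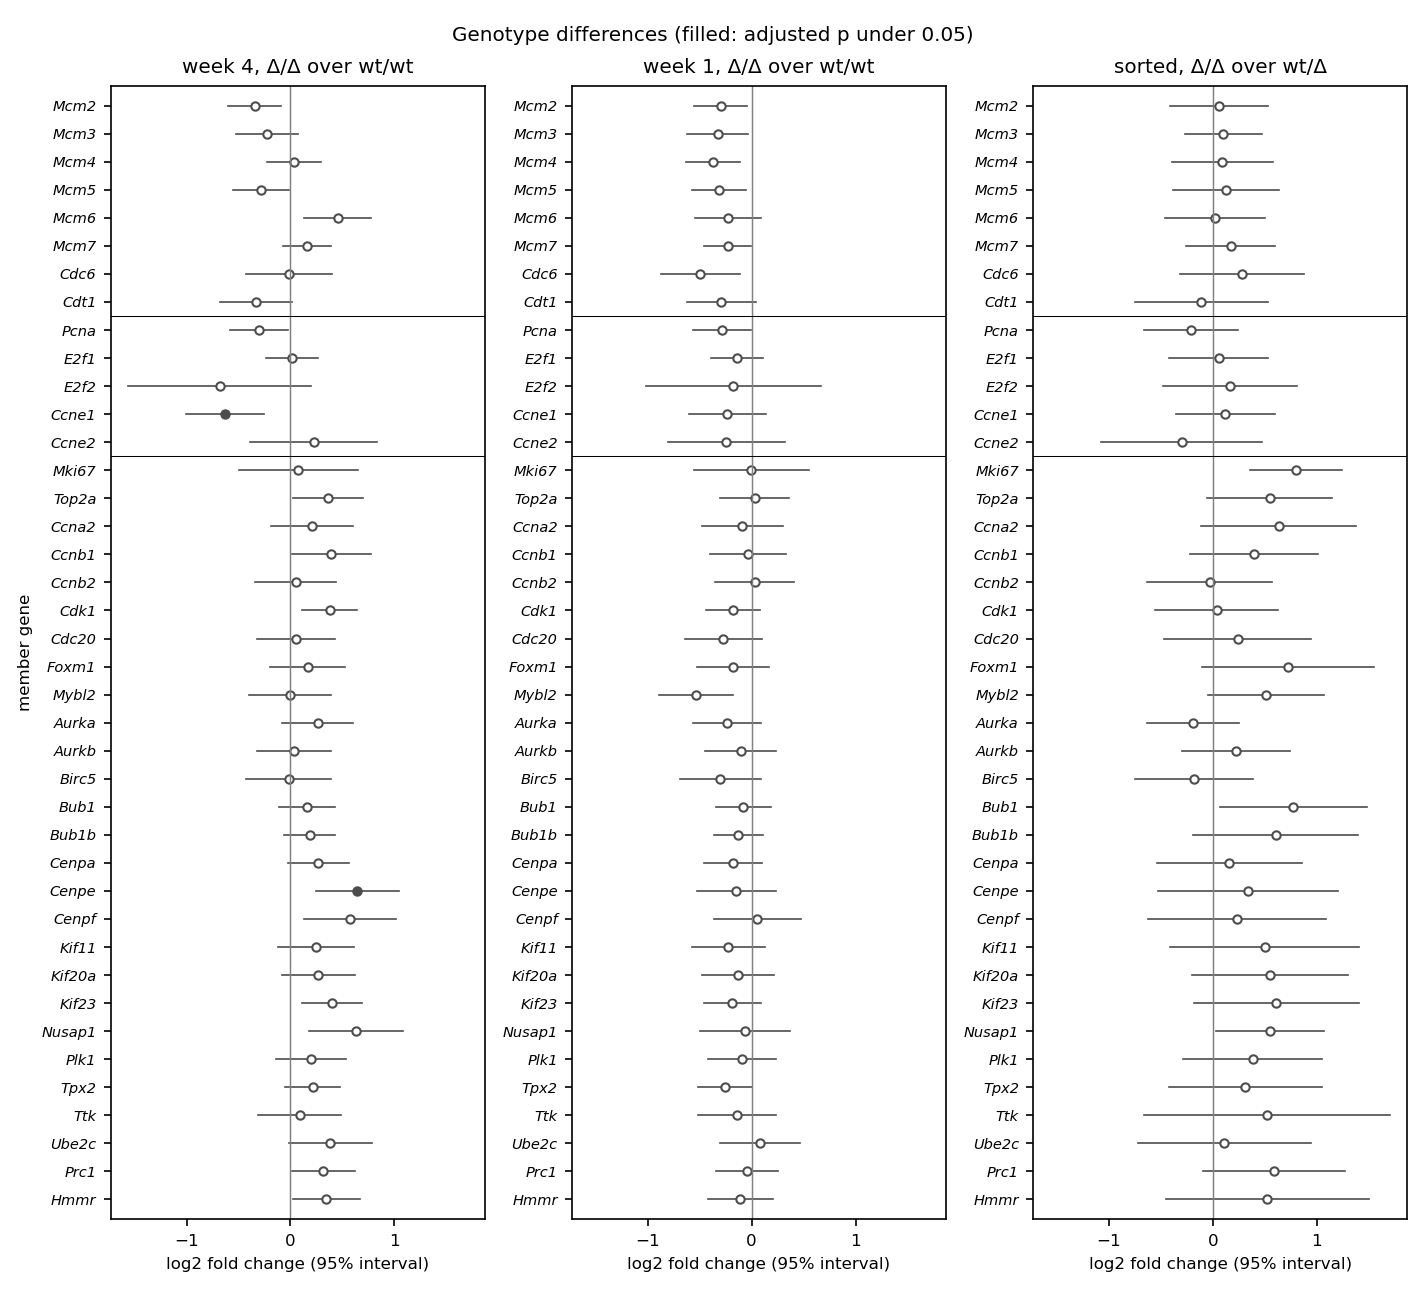
Log2 fold change of Δ/Δ over its control (x axes) with 95% intervals for each member (y axes) at week 4, at week 1 and in sorted cells, filled where the adjusted p was under 0.05. Only Cenpe (0.64) and Ccne1 (-0.63) at week 4 are filled, and the week 1 points of the licensing genes all lie between -0.49 and -0.23.

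Whether the genotypes changed differently over time was tested as an interaction, which is the week 4 genotype difference minus the week 1 difference. No member was called by edgeR, against 4.08% of all genes called higher and 3.08% lower, with 12 of 40 members (30%) and 18.4% of all genes at an unadjusted p under 0.05, and DESeq2 called 3 (Mcm6, Cdk1 and Cenpe). Since members vary together between libraries, their counts by direction here are not counts of independent results. The interaction was above 0 in all 27 mitotic genes (median 0.36, range 0.018 to 0.79) and in 6 of 8 licensing genes (median 0.25, range -0.046 to 0.68), beside a median of 0.0078 over all genes. It was largest in Cenpe (0.79, standard error 0.25, adjusted p = 0.0883), Nusap1 (0.70, adjusted p = 0.209), Mcm6 (0.68, adjusted p = 0.0745), Kif23 (0.58, adjusted p = 0.0805) and Cdk1 (0.55, adjusted p = 0.0779). Without week 4 wt/wt replicate 1, 5 members were called, all above 0, and without week 4 Δ/Δ replicate 3 it was 2. Among other replication genes Lig1, the DNA ligase of lagging strands (0.78, adjusted p = 0.0264), and Pola1, the catalytic subunit of DNA polymerase alpha (0.61, adjusted p = 0.0393), were called, and among other mitosis genes Hmgb2 (1.01, adjusted p = 0.00267) and Ckap2l, a spindle protein (0.70, adjusted p = 0.0474).

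In culture the balance of mitotic to licensing transcripts differed between the weeks and, by less, between the labels. The summed CPM of the 27 mitotic genes divided by that of the 8 licensing genes is read only between libraries, since CPM is not scaled to transcript length. It was 2.16, 2.70 and 2.09 in week 4 libraries labelled Δ/Δ and 1.92, 1.94 and 1.99 in week 4 wt/wt. At week 1 it was 3.44, 3.57 and 3.15 in Δ/Δ and 3.14, 2.85 and 2.95 in wt/wt. Thus the ratio was lower at week 4 than at week 1 in every library. At each week the Δ/Δ libraries lay above the wt/wt libraries without overlap, though at week 1 the closest pair was 3.15 in Δ/Δ and 3.14 in wt/wt. In sorted cells the groups overlapped, with 1.59, 2.08 and 2.01 in Δ/Δ and 1.08, 2.19 and 1.41 in wt/Δ. No test was run on the ratio. The summed licensing CPM was 272 ± 18.4 in week 4 Δ/Δ and 269 ± 42.9 in week 4 wt/wt, and 631 ± 21.5 in week 1 Δ/Δ and 776 ± 40.6 in week 1 wt/wt (SD, n = 3 each). The summed mitotic CPM was 628 ± 88.2 in week 4 Δ/Δ and 524 ± 75.2 in week 4 wt/wt, and 2134 ± 68.1 in week 1 Δ/Δ and 2306 ± 43.7 in week 1 wt/wt (SD, n = 3 each). At week 4 both sums overlapped between the genotypes, and at week 1 neither did.

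**Figure D5:**
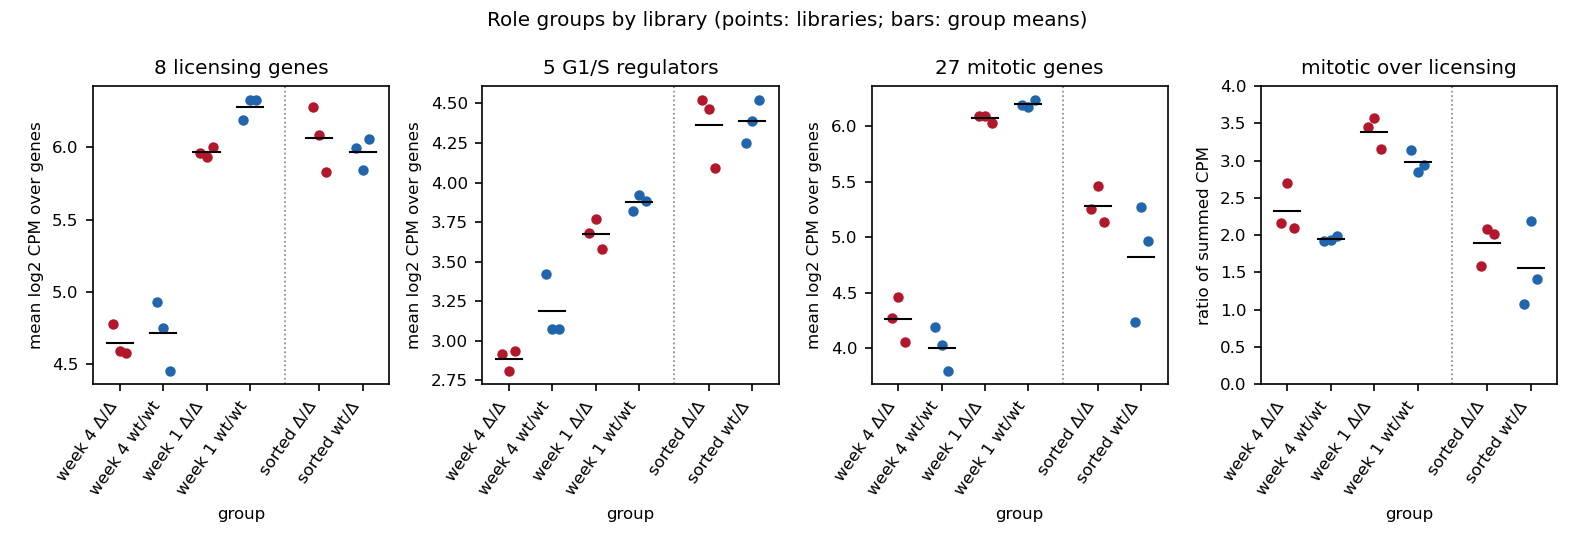
Mean log2 CPM of the licensing, G1/S and mitotic genes (first 3 panels) and the ratio of summed mitotic to summed licensing CPM (last panel, axis from 0) in each library by group, with bars for group means. The ratio is 2.09 to 2.70 in week 4 Δ/Δ against 1.92 to 1.99 in week 4 wt/wt, and sorted wt/Δ replicate 1 has the lowest ratio (1.08).

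In sorted cells, no member was called between libraries labelled Δ/Δ and wt/Δ, and of all 14605 genes 0% were called higher and 0% lower by edgeR. At an unadjusted p under 0.05 edgeR had 3 members (7.5%) and 1792 of all genes (12.3%), and DESeq2 called 1 member, Mki67. Mki67 had 54.1, 63.8 and 73.4 CPM in libraries labelled Δ/Δ and 30.4, 42.4 and 37.0 CPM in wt/Δ. All Δ/Δ values lay above all wt/Δ values (log2 fold change 0.80, standard error 0.19, adjusted p = 0.244, 95% interval 0.35 to 1.25, and adjusted p = 0.0187 in DESeq2). The same was so in Mybl2 (log2 fold change 0.51, standard error 0.24, adjusted p = 0.445) and Nusap1 (log2 fold change 0.55, standard error 0.23, adjusted p = 0.388), against 9.40% of all genes, and no member lay wholly below (11.1% of all genes). Of the mitotic genes 24 of 27 were above 0, with a median log2 fold change of 0.50, and of the licensing genes 7 of 8, with a median of 0.096, beside -0.0066 over all genes. The mitotic median rested largely on 1 control. In wt/Δ replicate 1, 24 of 27 mitotic genes had the lowest value of the wt/Δ group. Kif11, the kinesin that sets up the bipolar spindle, had 54.1, 47.2 and 41.0 CPM in Δ/Δ and 14.2, 41.7 and 45.0 CPM in wt/Δ, and Ttk, a spindle checkpoint kinase, 10.7, 12.2 and 7.54 CPM in Δ/Δ and 2.49, 11.8 and 6.95 CPM in wt/Δ. Without that library the mitotic median was 0.13.

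Licensing genes in sorted cells overlapped throughout. Mcm2 had 92.4, 76.0 and 67.1 CPM in libraries labelled Δ/Δ and 69.3, 63.2 and 93.0 CPM in wt/Δ (log2 fold change 0.063, standard error 0.20, adjusted p = 0.938, 95% interval -0.41 to 0.54). E2f2, a member nearly silent in culture, was expressed here, with 18.8, 15.3 and 10.6 CPM in Δ/Δ and 12.2, 11.2 and 16.6 CPM in wt/Δ (log2 fold change 0.16, standard error 0.28, adjusted p = 0.869). Foxm1 had 12.7, 15.7 and 8.44 CPM in Δ/Δ and 4.53, 8.28 and 9.59 CPM in wt/Δ, and Cdk1 had 53.3, 71.2 and 56.6 CPM in Δ/Δ and 42.9, 80.9 and 52.7 CPM in wt/Δ, with overlap in both. The median coefficient of variation over the 40 members was 15.5% in sorted Δ/Δ and 32.6% in wt/Δ, and in culture 14.1% in week 4 Δ/Δ, 16.8% in week 4 wt/wt, 5.72% in week 1 Δ/Δ and 7.36% in week 1 wt/wt.

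Blood and endothelial transcripts were present in every sorted library, so the members are not read there as MSC transcripts alone. The study's gate for MSCs leaves out cells positive for CD45, TER119 or CD31, and whether it was applied when these tdTomato+ cells were sorted for sequencing is not given in the sources used here. All 12 myeloid markers were detected in both groups, and they summed to 3595, 3569 and 2455 CPM in Δ/Δ and 1999, 4028 and 3560 CPM in wt/Δ. Thus wt/Δ replicate 1, lowest of its group in 24 mitotic genes, was also lowest in this sum. Δ/Δ replicate 3, lowest of its group in 18 mitotic genes, was lowest of its group in it. The markers of this list did not share 1 order in either group. In wt/Δ, Mpo (290, 185 and 927 CPM), Ctsg (11.7, 2.96 and 23.3 CPM) and Ms4a3 were lowest in replicate 2, and the others in replicate 1. In Δ/Δ, Elane, Prtn3, Ms4a3, Csf1r, Cd68 and Adgre1 were lowest in replicate 1, and the others in replicate 3. The 8 endothelial markers summed to 2066 to 2220 CPM in Δ/Δ and 1289 to 2050 CPM in wt/Δ, without overlap. This list includes Eng, which is also among the stromal markers. Singly, Pecam1, Cdh5, Kdr and Tie1 did not overlap between the groups, while Eng, Tek, Emcn and Flt4 did. Tek was highest in wt/Δ replicate 3 (555 CPM) and Emcn in wt/Δ replicate 2 (284 CPM). The 9 erythroid markers found summed to 329 to 332 CPM in Δ/Δ and 295 to 364 CPM in wt/Δ, and 9 B cell markers to 254 to 347 CPM in Δ/Δ and 354 to 392 CPM in wt/Δ. Ptprc had 60.6, 59.3 and 46.0 CPM in Δ/Δ and 30.6, 46.2 and 53.2 CPM in wt/Δ. Their part in the mitotic values was not tested. Megakaryocyte markers were highest in Δ/Δ replicate 3 (1209 CPM) and wt/Δ replicate 2 (1990 CPM), and without both the mitotic median was 0.69. Sex-linked transcripts differed as well, since wt/Δ replicates 1 and 3 held reads of Y-linked genes and at most 0.0334 CPM of Xist, against 24.4 to 46.7 CPM of Xist in the Δ/Δ libraries. With Y-linked reads as a covariate, which leaves wt/Δ replicate 2 as the only comparable control, the mitotic median was 0.048 and the licensing median 0.23.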

How the data were processed

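RNA was sequenced in 18 libraries, 3 per group. The authors aligned reads with HISAT2 2.0.4 to the mouse genome (mm10) and used featureCounts 1.6.3 to count them for each gene, so the deposited values are whole-number counts with no normalization. The cDNA kit keeps no strand, and reads of overlapping genes cannot be told apart. They were tested with edgeR 4.0.16 under R 4.3.3, using filterByExpr (minimum count 10), TMM scaling and the quasi-likelihood F test. P-values were adjusted after Benjamini and Hochberg, and 0.05 was the threshold. One fit held the 12 cultured libraries in 4 groups, and another the 6 sorted libraries. Standard errors and 95% intervals follow from the F statistic. Replicates differed by more than counting error (chi-squared 10.8 to 376 per degree of freedom over 18 pairs).

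The members, wider lists and tests were chosen with earlier results of these data known. All members are described, and of the wider lists at most the 2 genes with the largest fold change per comparison among called genes whose mean log2 CPM was 3 or more. Sorted groups follow the sample titles. The genotype field conflicts with the wt/Δ titles, since it gives floxed Pot1a for all 6 libraries. Same-numbered wt/wt libraries of week 4 and week 1 deviated together (r = 0.152, 0.220 and 0.209), each over 0.1, so the numbers may pair them. Those of Δ/Δ over time did not (r = -0.238, -0.0579 and 0.177), nor did the genotypes at week 1 (r = 0.0517, -0.0617 and -0.0794) or in sorted cells (r = 0.0623, 0.074 and 0.025). Between the genotypes at week 4 not all did (r = 0.636, 0.226 and -0.0835). There Δ/Δ replicates 1, 2 and 3 correlated best with wt/wt replicates 1, 3 and 2 (r = 0.636, 0.486 and 0.392). The replicate block goes by number and does not take in such a match, whose source was not tested. Alternatives were RLE or library-size scaling, other filters and thresholds, DESeq2 1.42.0, a replicate block, fits of only the 6 libraries compared and leaving out each library. Chosen after seeing the data were thinning to the lowest depth, leaving out both week 4 libraries numbered 1 or both megakaryocyte-rich libraries, Y-linked reads as a covariate, and wt/wt libraries alone with a replicate block. Promoter windows and positions are RefSeq's, GRCm38.p6, the assembly named mm10. The fit was also run on simulated counts with changes of known size and the same spread for all genes, which does not measure its power here.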

Additional observations from a re-analysis of the deposited data

How the results depend on the processing

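Over 4790 fold changes of members under the alternatives, none changed direction where called, 12 lost and 36 gained a call, and 4742 stayed as they were. The 38 members lower over time were 37 to 39 in wt/wt and 38 to 39 in Δ/Δ as each library was left out, and 38 with a replicate block in each. The week 4 count of 2 members became 0 at a threshold of 0.01 or with only the 6 libraries compared, 8 at a threshold of 0.1, 6 with DESeq2, and 4 without both week 4 libraries numbered 1. It ran from 0 to 8 as each library was left out and was 2 with a replicate block. The interaction count of 0 became 4 at a threshold of 0.1, 3 with DESeq2, 2 without both week 4 libraries numbered 1 and 1 with counts thinned to the lowest depth. It ran from 0 to 5 as each library was left out and was 0 with a replicate block. The count of 0 at week 1 was 0 under every alternative run, and that in sorted cells was 1 with DESeq2 and otherwise 0. The causes of these moves were not tested. A replicate block by replicate number changed no count of members. E2f2 had few counts in culture, where its 95% intervals span more than those of any other member.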
